A study of Mus musculus with 6 samples.

Results

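The 10 genes described here encode the desmosome of mouse epidermis and its late form, the corneodesmosome. They are the desmogleins Dsg1a, Dsg2 and Dsg3, the desmocollins Dsc1, Dsc2 and Dsc3, the plaque genes Pkp1 (plakophilin 1), Jup (plakoglobin) and Dsp (desmoplakin), and Cdsn (corneodesmosin). Members were found by gene name in the array's own annotation and made up 10 of 16495 genes tested. They were carried by 20 probes, of which 19 were well above background on every array and were tested. The remaining Dsg2 probe, A_52_P96159, was well above background on 1 array, Anakinra 2, and was not tested.

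Desmosomes are the spot junctions that hold neighbouring keratinocytes together. Desmogleins and desmocollins are cadherins that bind across the gap between cells, and inside each cell plakoglobin and plakophilins tie their tails to desmoplakin, which anchors the keratin filaments. The cadherins are exchanged as cells move up through the epidermis: Dsg3, Dsc3 and the more widespread Dsg2 and Dsc2 are typical of the lower layers, and Dsg1 and Dsc1 of the differentiating upper layers, where corneodesmosin is added before the junctions are cut by proteases and the cells are shed.

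The 6 cultures were primary keratinocytes from wild type newborn mice, prepared from epidermis together with hair follicle buds. All 6 received v-ras-Ha, the viral form of the Ras oncogene, by an adenovirus at 10 particles per cell, so no culture without the oncogene was compared. From 5 hours after transduction 3 cultures were given Anakinra (5 ug/ml), a recombinant protein that blocks the receptor of interleukin-1 (IL-1), and 3 were given PBS, and the cells were harvested for RNA 3 days later with fresh antagonist given after 2. The question put by the study was which genes of ras-expressing keratinocytes depend on the IL-1 receptor. Whether the 3 cultures of a group had separate animals as their source is not stated in the labels. The p-values below therefore cover the spread among these 6 cultures alone, and that spread may be technical.

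Each RNA was hybridised to 1 single-colour Agilent array. Levels are given as multiples of the 75th percentile of the same array, which lay between 864 and 1087 intensity units, and changes as Anakinra minus PBS on the log2 scale of those multiples. No spot was saturated. All 8 keratinocyte markers, among them Krt5 and Krt14, were well above background on every array, with a summed level of 1279 to 1437 in PBS and 1190 to 1333 in Anakinra. Probes well above background made up between 55.6% and 71.0% of 5 arrays and 86.5% of Anakinra 2. A further array stood apart in another respect: over 4492 genes with probes at least 500 bases apart, the upstream probe was lower against the downstream one in Anakinra 3, with a median of -0.23 after centring each gene over the arrays, against 0.01 to 0.09 on the other 5 arrays. This measure was added after the Dsp probes below had been seen. Of the 2 slides used, slide 1 held Anakinra 1 with PBS 2 and PBS 3, and slide 2 held PBS 1 with Anakinra 2 and Anakinra 3.

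Under Anakinra the cadherins of the upper epidermis, Dsg1a and Dsc1, rose, and none of the other 8 desmosome genes passed the test. Dsg1a was 3.43-fold and Dsc1 2.35-fold higher, which are log2 changes of 1.78 and 1.23. The log2 changes of the 8 others lay between -0.25 and 0.35. Of the 10 members 2 rose and 0 fell (limma, adjusted p under 0.05 over all genes tested), where 0.97% of all genes tested rose, 0.8% fell and 1.77% did either. An unadjusted limma p under 0.05 was found for 4 members, all upward, and for 16.1% of all genes in either direction and 8.48% upward. The members were chosen with the rise of Dsg1a and Dsc1 in these data known, so these shares are no test of the set. The median change of the 10 was 0.22, against 0.01 for all genes, and 9 of 10 were above 0, as were 52.3% of all genes. When arrays were scaled by their medians, the median of all genes moved by -0.33 and 6 of those 9 were below 0. Their distance from the median gene stayed within 0.01. That was fixed in advance, because scaling by a constant per array moves all genes nearly alike. Under that scaling 8 genes rose and 49 fell, against 160 and 132, and 0 members passed: Dsg1a was at 1.45 (limma adjusted p = 0.207) and Dsc1 at 0.90 (adjusted p = 0.869). In that fit all 10 members had the same SE of 0.45, against 0.07 (Dsp) to 0.15 (Dsg1a) in the main setting. Without the filter on dim probes Dsg1a and Dsc1 also missed the threshold (limma adjusted p = 0.0617 and 0.0694). In 5 of the 10 every Anakinra value was above every PBS value, an upward separation seen in 12.5% of all genes (26.2% in either direction).

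**Figure D1:**
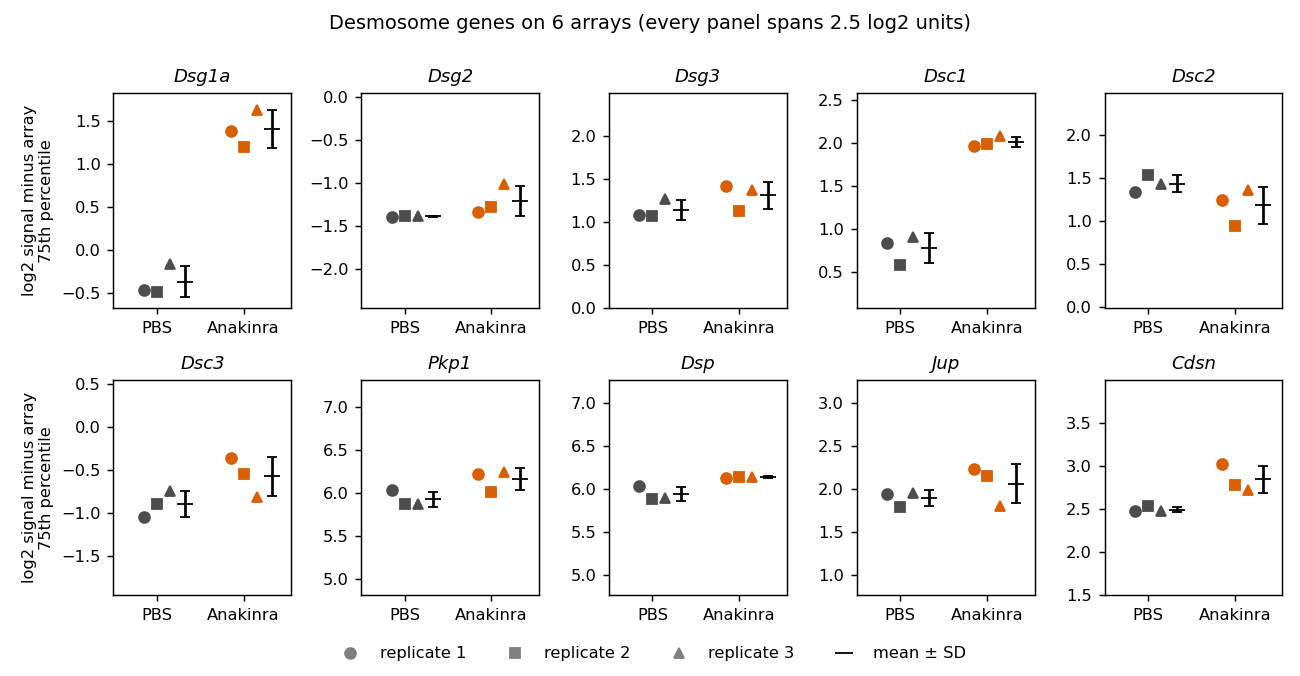
Each panel plots 1 gene on the 6 arrays as the log2 signal minus the array's 75th percentile, with the replicates as symbols and the mean ± SD of 3 arrays beside them; all panels span the same range. The Anakinra values of Dsg1a (1.19 to 1.63) and Dsc1 (1.96 to 2.08) lie clear of PBS (-0.49 to -0.17 and 0.58 to 0.91), and the other panels show small or overlapping differences.

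Dsg1a encodes a desmoglein 1, the main adhesive desmoglein of the upper epidermis. Its level was 0.723, 0.713 and 0.891 times the array's 75th percentile on PBS arrays 1, 2 and 3, and 2.61, 2.29 and 3.09 times on Anakinra arrays 1, 2 and 3. The lowest Anakinra value was above the highest PBS value. The change was 1.78 ± 0.15 (SE, n = 3 per group; 95% interval 1.39 to 2.16; limma adjusted p = 0.0124), and its p ranked 69 among the 16495 genes. Within slide 1 the difference was 1.71 and within slide 2 it was 1.88. A slide block gave 1.80, which did not pass (adjusted p = 0.0647), and over all alternatives the adjusted p ran from 0.000204 to 0.999. The call was also lost without PBS 1 (adjusted p = 0.103), without PBS 2 (0.126) and without Anakinra 1 (0.0589), while the change ran from 1.66 to 1.88 with any 1 array left out.

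Dsg1a has near copies beside it in the desmosomal cadherin cluster of chromosome 18, Dsg1b and Dsg1c, and signal shared between such copies cannot be told apart without the probe sequences, which were not used here. The Dsg1a probe is placed by the array design at chr18:20485777-20485836 of build mm8. The Dsg1b gene was at 0.37 ± 0.14 (limma adjusted p = 0.282) and Dsg1c at 0.81 ± 0.14 (adjusted p = 0.0696). The 3 Dsg1b probes, looked at after their values were seen, disagreed in size: in the fit of single probes A_51_P167153 was at 0.43 ± 0.09 (adjusted p = 0.130) and A_51_P167156 at 0.37 ± 0.14 (adjusted p = 0.328), whereas A_51_P388454 rose by 1.15 ± 0.16 (adjusted p = 0.0490), where 0.608% of 25013 probes rose. In all 3 the groups did not overlap, as in 24.6% of all probes. On each array the Dsg1a probe was set against these, and the gap widened under Anakinra by 1.34 ± 0.17 and 1.40 ± 0.27 against the first pair of Dsg1b probes, by 0.63 ± 0.22 against A_51_P388454 and by 0.97 ± 0.19 against Dsg1c (SE of the difference of means, n = 3 per group; not tested). The Dsg1a probe thus moved more than every tested probe of Dsg1b and Dsg1c. Dsg4, the desmoglein of the hair shaft, was not well above background on any array.

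Dsc1 encodes the desmocollin of the upper epidermis. Its level was 1.79, 1.49 and 1.88 on PBS arrays 1, 2 and 3 and 3.89, 3.97 and 4.21 on Anakinra arrays 1, 2 and 3, again without overlap. The change was 1.23 ± 0.11 (n = 3 per group; 95% interval 0.96 to 1.50; limma adjusted p = 0.0125), with 1.22 within slide 1 and 1.19 within slide 2. A slide block gave 1.20 (adjusted p = 0.0647), and over all alternatives the adjusted p ran from 0.000246 to 0.999. Without 1 array the change stayed between 1.13 and 1.30, but it passed only without Anakinra 2; without PBS 1, PBS 2, PBS 3, Anakinra 1 or Anakinra 3 the adjusted p lay between 0.0524 and 0.0986.

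A further probe belongs to Dsc1 through a RefSeq synonym, 1110020A10Rik, the name it carries in the files. It was outside the selection by name and did not enter the main value of Dsc1, but the alternative that averages all passing probes of a gene includes it and gave 1.36, the highest value of Dsc1 over the alternatives. Its log2 level was 0.02, -0.06 and 0.11 on PBS arrays 1, 2 and 3 and 1.44, 1.31 and 1.78 on Anakinra arrays 1, 2 and 3, and it rose by 1.49 ± 0.14 (limma fit of single probes, n = 3 per group, adjusted p = 0.0218). Both Dsc1 probes therefore moved the same way with separated groups. The Dsc1 probe selected by name is placed at chr18:20228458-20228517 of mm8.

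The lower-layer and widespread cadherins were measured less far from PBS. None of Dsg2, Dsg3, Dsc2 and Dsc3 passed, and their changes ran from -0.25 to 0.32 with a median of 0.17. Dsg3, the desmoglein of the basal and lower spinous layers, was at 2.11, 2.10 and 2.41 in PBS and 2.68, 2.19 and 2.59 in Anakinra, with overlapping groups and a change of 0.17 ± 0.11 (95% interval -0.11 to 0.45; limma adjusted p = 0.530). Its dimmer probe A_51_P420338 was at 0.46 ± 0.20 (adjusted p = 0.394 in the fit of single probes). The intervals of both Dsg3 probes end below 1, that is below a doubling.

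Dsc3, the desmocollin paired with Dsg3 in the lower layers, was at 0.482, 0.535 and 0.596 in PBS and 0.776, 0.682 and 0.567 in Anakinra. Anakinra 3 lay among the PBS values, and the change was 0.32 ± 0.15 (95% interval -0.05 to 0.69; limma adjusted p = 0.371). Without Anakinra 3 it was 0.44 (limma adjusted p = 0.226). Over the alternatives other than the fits within 1 slide, the limma adjusted p of Dsc3 ran from 0.214 to 0.996.

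Dsg2, which is found in many epithelia, was at 0.380, 0.384 and 0.382 in PBS and 0.395, 0.413 and 0.494 in Anakinra. The PBS values were almost equal and Anakinra 3 was the highest, which set the groups apart, but the change of 0.18 ± 0.10 did not pass (95% interval -0.08 to 0.43; limma adjusted p = 0.467). The other tested Dsg2 probes were at -0.06 ± 0.09, 0.11 ± 0.14 and -0.24 ± 0.29, so its probes did not share a direction.

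Dsc2, the widespread desmocollin, was the only member with a negative change. Its level was 2.52, 2.89 and 2.70 in PBS and 2.37, 1.91 and 2.56 in Anakinra, with Anakinra 2 the lowest and the groups overlapping. The change was -0.25 ± 0.13 (95% interval -0.58 to 0.08; limma adjusted p = 0.427). All 3 of its probes had a negative sign, at -0.25, -0.22 and -0.09, and none passed.

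**Figure D2:**
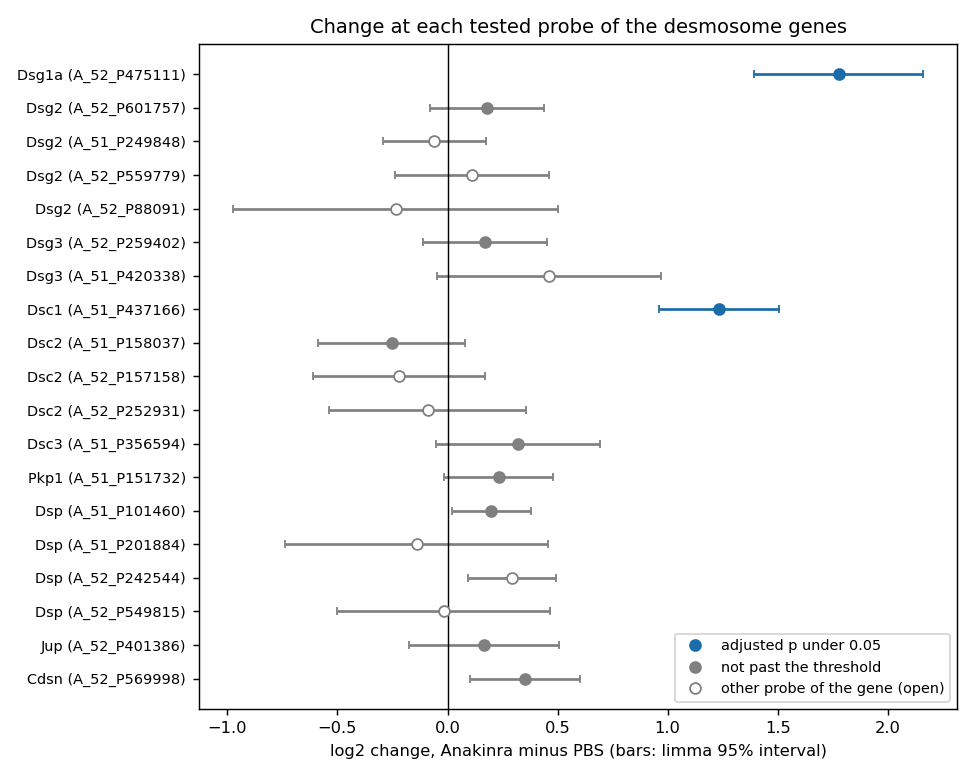
Each row is 1 of the 19 tested probes, with the log2 change of Anakinra minus PBS as a point and the limma 95% interval of the fit of single probes as a bar; open points are further probes of a gene. Only the Dsg1a and Dsc1 probes, at 1.78 and 1.23, are past the threshold, and the intervals of all other probes end below 1.

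The upper-layer and lower-layer cadherins were also compared within each array, which scaling by a constant per array leaves unchanged. Such differences reuse the values of the gene fit above, so they are no independent evidence of the rise of Dsg1a and Dsc1. Log2 Dsg1a minus log2 Dsg3 was -1.55, -1.56 and -1.44 in the PBS cultures and -0.04, 0.06 and 0.25 in the Anakinra cultures. All Anakinra values were above all PBS values, and the gap had shifted by 1.61 ± 0.09 (SE, n = 3 per group; exact permutation test, two-sided, p = 0.1, the smallest that 3 against 3 allow; 0.16 adjusted over the 8 pairs compared). Against Dsg2 the shift was 1.60 ± 0.13, and for Dsc1 it was 1.49 ± 0.19 against Dsc2 and 0.91 ± 0.20 against Dsc3, each without overlap and with the same p. Dsg1a also shifted against Dsc1, by 0.54 ± 0.13 with no overlap and the same p. The shift of Dsg1a against Dsg3 was 1.46 within slide 1 and 1.70 within slide 2, and that of Dsc1 against Dsc3 was 0.76 and 0.83.

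**Figure D3:**
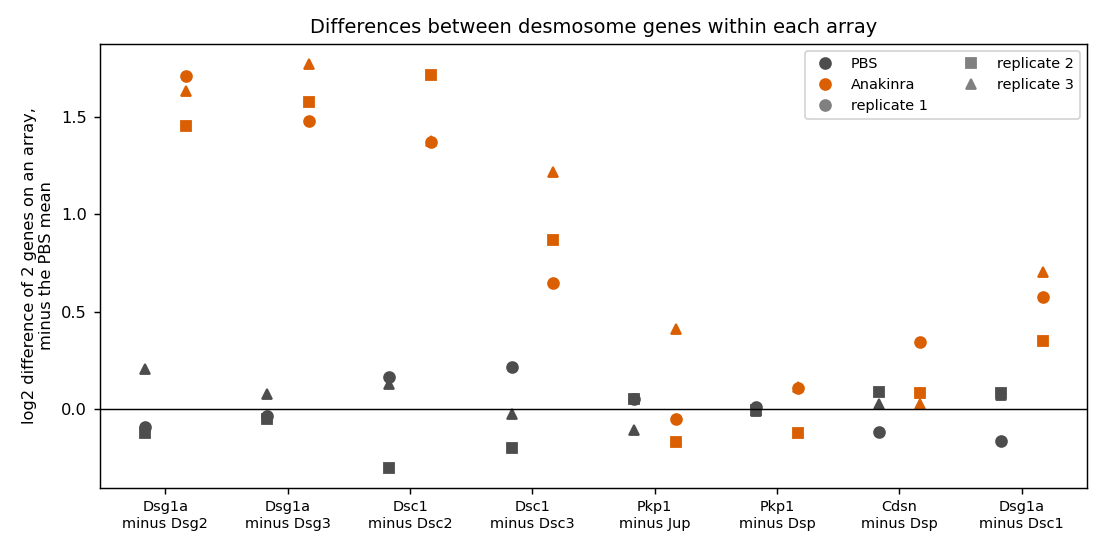
For each of 8 gene pairs the log2 difference on each array is plotted minus the mean of the 3 PBS arrays, with PBS in grey, Anakinra in orange and replicates as symbols. In the 4 pairs that set Dsg1a or Dsc1 against a lower-layer cadherin, and in Dsg1a minus Dsc1, every Anakinra array lies above every PBS array; in the pairs of Pkp1 or Cdsn with Jup or Dsp the groups overlap.

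Pkp1, Dsp and Jup, which build the inner plaque, did not pass. Pkp1, the plakophilin of upper epidermis that strengthens the link to desmoplakin, was at 65.5, 58.7 and 58.8 in PBS and 74.7, 64.5 and 76.1 in Anakinra. Anakinra 2 fell among the PBS values, and the change was 0.23 ± 0.10 (95% interval -0.01 to 0.47; limma adjusted p = 0.328). Jup, which binds the cadherin tails in all layers, was at 3.85, 3.46 and 3.86 in PBS and 4.71, 4.43 and 3.49 in Anakinra. Anakinra 3 was in the PBS range, and the change was 0.17 ± 0.13 (95% interval -0.17 to 0.51; adjusted p = 0.610) with that array and 0.30 ± 0.08 (adjusted p = 0.215; 0.215 to 0.999 over all alternatives) without it. Pkp1 and Jup differed in their change by 0.07 ± 0.19 (exact permutation p = 0.9).

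Dsp, which anchors keratin filaments, has 4 probes along its transcript and they gave different answers. The one nearest the 3′ end, A_51_P101460 at chr13:38205718-38205777 of mm8, was at 65.3, 59.0 and 59.4 in PBS and 69.6, 70.5 and 70.6 in Anakinra. The groups did not overlap, and the change of 0.20 ± 0.07 did not pass (95% interval 0.03 to 0.37; limma adjusted p = 0.250). In the fit of single probes A_52_P242544, whose centre lies 387 bases upstream, was at 0.29 ± 0.08, also without overlap (adjusted p = 0.206). A_52_P549815, 2463 bases upstream, was at -0.02 ± 0.19, and A_51_P201884, 4121 bases upstream, was at -0.14 ± 0.24. Those distances are in the genome, and the last probe spans 1100 bases there.

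On Anakinra 3 the upstream Dsp probes were far below the end-most one. Log2 A_51_P201884 minus A_51_P101460 was -6.43, -6.44 and -6.24 on the PBS arrays, -6.32 and -6.59 on Anakinra arrays 1 and 2, and -7.22 on Anakinra 3. For A_52_P549815 the difference was -3.80 on Anakinra 3 against -3.35 to -3.12 on the 5 other arrays. The loss of upstream signal across 4492 genes on the same array is given above, and its part in the values of the members was not tested. Without Anakinra 3, Dsg1a was at 1.66 ± 0.14 (limma adjusted p = 0.0462), Dsc1 at 1.20 ± 0.12 (0.0524) and the end-most Dsp probe at 0.20 ± 0.07 (0.315).

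**Figure D4:**
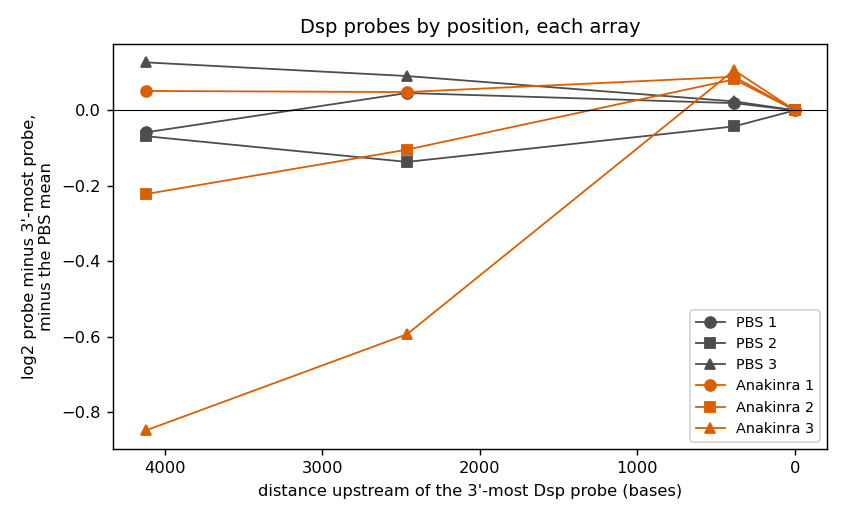
The log2 signal of each Dsp probe minus that of the 3′-most probe, less the PBS mean, is plotted against the distance upstream of that probe in bases; each line is 1 array. Anakinra 3 lies far below the 5 other arrays at the upstream probes and with them at 387 bases.

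Cdsn encodes corneodesmosin, a glycoprotein added to desmosomes of the outermost living layer. Its level was 5.55, 5.78 and 5.58 in PBS and 8.14, 6.88 and 6.63 in Anakinra. All Anakinra values were higher, Anakinra 1 by the most, yet the change of 0.35 ± 0.10 did not pass (95% interval 0.11 to 0.60; limma adjusted p = 0.177; 0.0598 to 0.999 over all alternatives). It was 0.52 within slide 1 and 0.28 within slide 2. Its difference from Dsp within arrays shifted by 0.15 ± 0.11 (exact permutation p = 0.4, adjusted 0.533). The interval ends below the change of Dsg1a and Dsc1, whose own intervals begin at 1.39 and 0.96. The probe is placed at chr17:35164940-35164999 of mm8.

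Start-site sequence was at hand for 3 of the 10 members in the RefSeq table of build GRCm38.p6: Cdsn with 2 start sites, Dsp and Jup. The 250 bases before each start were searched on both strands for an AP-1 motif (TGANTCA), an NF-kB motif (GGG, any 2 bases, TTTCC), a grainyhead-like motif (AACCNGTT), a TATA box (TATAAA) and a GC box (GGGCGG). The Cdsn and Dsp windows are shown because they set the member of the outermost layer beside one of all layers, and capitals mark motif matches.
Cdsn, chr17:35542851-35543100, plus strand: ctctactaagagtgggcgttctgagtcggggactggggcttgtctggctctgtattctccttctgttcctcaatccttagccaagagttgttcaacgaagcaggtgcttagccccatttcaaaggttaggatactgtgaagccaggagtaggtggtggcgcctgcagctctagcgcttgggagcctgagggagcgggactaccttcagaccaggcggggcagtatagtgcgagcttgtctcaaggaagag
Cdsn, chr17:35551878-35552127, plus strand: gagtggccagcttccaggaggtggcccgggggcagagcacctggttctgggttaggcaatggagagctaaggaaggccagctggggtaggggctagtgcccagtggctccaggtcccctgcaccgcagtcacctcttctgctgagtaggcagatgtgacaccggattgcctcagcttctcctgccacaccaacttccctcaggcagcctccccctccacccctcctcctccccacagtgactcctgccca
Dsp, chr13:38151044-38151293, plus strand: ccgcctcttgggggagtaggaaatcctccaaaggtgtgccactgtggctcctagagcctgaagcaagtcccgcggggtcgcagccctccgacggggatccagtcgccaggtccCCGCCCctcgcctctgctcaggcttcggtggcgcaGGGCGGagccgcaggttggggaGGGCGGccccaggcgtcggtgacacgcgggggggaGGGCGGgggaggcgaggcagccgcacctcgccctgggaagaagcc
The Dsp window held 4 GC boxes and the Jup window 2, a motif found in 32.7% of 32851 windows of the same length. Neither Cdsn window held a match to any of the 5 motifs, and neither did the Dsp and Jup windows apart from the GC boxes. AP-1 matches occurred in 6.75% of all windows, NF-kB in 1.41%, grainyhead-like in 1.79% and TATA in 12.4%. A match describes letters and is no measured binding site.

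Other genes of the same structures were taken from lists. Beside the counts below, 0.97% of all genes tested rose, 0.8% fell and 16.1% had an unadjusted p under 0.05 (limma). Of the 8 tested genes among 9 further desmosome genes 0 passed (limma; 5 had an unadjusted p under 0.05), with a median of 0.24. The smallest p-values were those of Dsg1c, given above, and of Pkp2, a plakophilin of simple epithelia and heart, which was at -0.32 ± 0.07 (adjusted p = 0.118). When only probes above background on all 6 arrays were tested, Dsg1c passed (adjusted p = 0.0312). Of 11 adherens junction genes, which form the neighbouring actin-linked junction, 0 passed (4 had an unadjusted p under 0.05), with a median of 0.12; the nectin Nectin2 was at -0.37 ± 0.06 (adjusted p = 0.0584) and its partner Afdn at -0.63 ± 0.16 (adjusted p = 0.157). Of 11 proteases and inhibitors that act on corneodesmosomes or their precursors 1 rose, Klk5, a kallikrein that cuts corneodesmosin and desmoglein 1, by 0.999 ± 0.10 (adjusted p = 0.0161), and 10 did not pass (5 of the 11 had an unadjusted p under 0.05); the list median was 0.05. Of 8 tested epidermal keratins 2 rose, the upper-layer pair Krt1 at 2.35 ± 0.19 (adjusted p = 0.0112) and Krt10 at 2.40 ± 0.26 (adjusted p = 0.0206), and 6 did not pass (5 of the 8 had an unadjusted p under 0.05).

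The genes whose 6 values, centred on their mean, lay closest to those of Dsg1a were Aadac, Serpinb7 and Medag, at root mean square differences of 0.10, 0.12 and 0.15 log2 units among 14067 genes above background on all arrays. Closest to Dsc1 were Cpm at 0.06, Hal at 0.07 and the transcript AK076547 at 0.07, and closest to Dsp were Fam160a1, Tbc1d14 and ENSMUST00000030142, each at 0.03. These likenesses rest on 6 arrays that share the treatment contrast and carry no test.

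Markers of other cells that the preparation can hold were read beside these results. Among all genes tested 0.97% rose, 0.8% fell and 52.3% had a change above 0. Fibroblast markers had a summed level of 10.9 to 13.4 in PBS and 14.8 to 17.6 in Anakinra, and all 8 were above background on every array. Of these 2 rose, Lum by 1.43 and Col3a1 by 0.95, both dim at mean log2 levels of -5.29 and -2.64 in PBS. Changes were above 0 in 7 of 8, with Dcn at -0.38 ± 0.07 (limma adjusted p = 0.0703). The brighter Col1a1 and Col1a2 were at 0.23 ± 0.14 (adjusted p = 0.498) and 0.18 ± 0.10 (adjusted p = 0.435). Hair follicle markers ran from 9.05 to 10.2 and from 11.04 to 13.2, with 1 of 5 tested genes higher, Krt79 by 0.86. Melanocyte markers ran from 90.9 to 109 and from 105 to 114, with 0 of 8 past the threshold and changes above 0 in 8 of 8 (median 0.20). Immune markers ran from 2.17 to 2.47 and from 1.79 to 2.62 with 0 of 4 tested genes called. Of that list Trdc had no probe under that name on the array and was not measured. Endothelial markers ran from 2.01 to 2.13 and from 1.82 to 1.97 with 0 of 3 called. The part of the fibroblast, hair follicle and melanocyte differences in the desmosome values was not tested. In these whole cultures, more cells of the upper layers and more RNA per cell cannot be told apart.

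**Figure D5:**
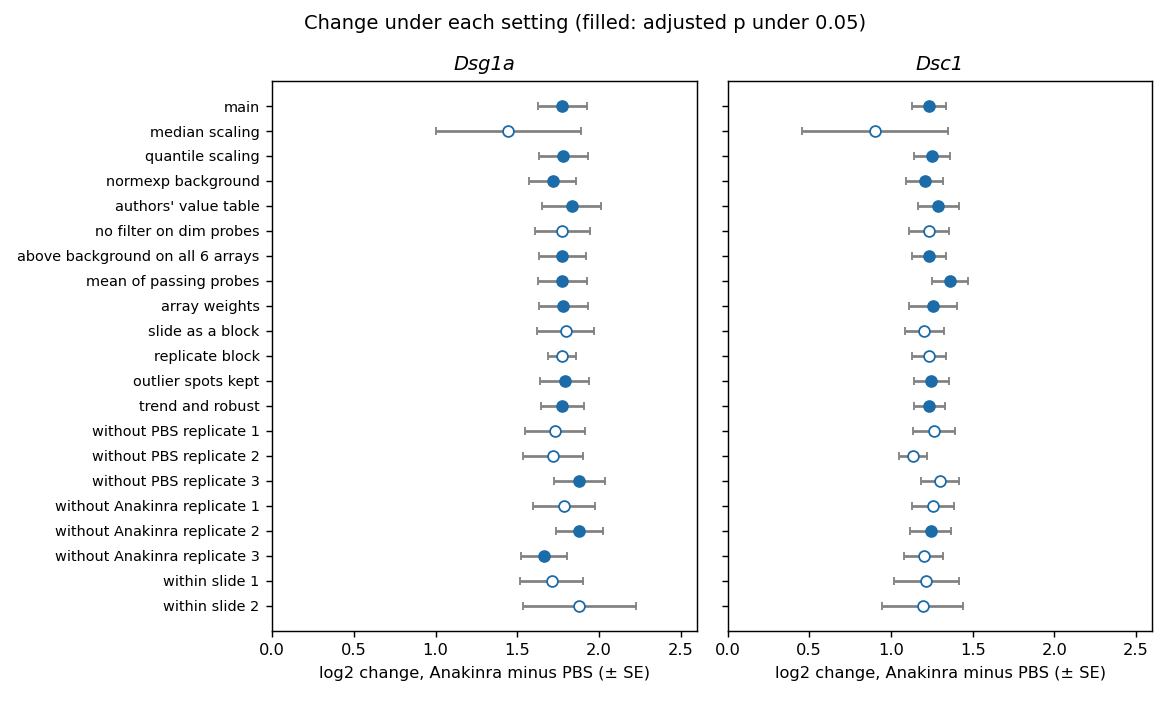
The log2 change of Dsg1a and Dsc1, Anakinra minus PBS, is plotted under the main setting and each of 20 alternatives, with bars of 1 SE and filled points where the adjusted p was under 0.05. Dsg1a stays between 1.45 and 1.88 and Dsc1 between 0.90 and 1.36, while 9 of the 20 alternatives leave Dsg1a and 11 leave Dsc1 short of the threshold.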

How the data were processed

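RNA of 6 cultures was measured on 6 one-colour arrays, with groups from the treatment label and replicate numbers from the titles. Per the file headers, arrays were read with Agilent Feature Extraction 9.5.3.1 on a design of build mm8, which makes the deposited processed intensity by subtracting background and spatial trend on each array alone. No scaling between arrays had been applied to it. The authors' own value table held log2 values that equalled log2 of that intensity plus 1 constant per array to within 0.000505; how the constants were set is unknown here, and the column medians were 5.77, 5.83 and 6.22 for PBS and 5.74, 7.00 and 6.21 for Anakinra.

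The log2 processed intensity minus each array's 75th percentile was analysed. Control spots and outlier spots were left out, and a probe entered if every array of 1 group or both had it well above background and each group had at least 2 values. The brightest passing probe stood for a gene. Names were updated through a RefSeq table of GRCm38.p6. Of 41174 probes 8148 had no usable match there by accession, symbol or synonym and kept the name in the file. A further 6733 matched by symbol, which left their name unchanged. Anakinra and PBS were compared with limma 3.58.1 in R 4.3.3 (lmFit, eBayes, two-sided, Benjamini-Hochberg over 16495 genes), and a further fit took all 25013 passing probes singly. Within-array differences of 8 gene pairs were tested by exact permutation.

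All 10 members were named; from every other pathway list came the called genes, up to 4, or the 2 of smallest p, and the 3 nearest profiles of Dsg1a, Dsc1 and Dsp. The marker genes Lum, Col3a1, Dcn, Col1a1, Col1a2 and Krt79 are named outside this rule, after their values were seen. The members and lists were chosen with earlier results of these data known, among them the rise of Dsg1a and Dsc1. Alternatives changed scaling, background correction, filters, probe choice, weights, blocks and samples. The number of arrays limits the precision. Replicate numbers are not stated to pair the cultures, and the main fit was unpaired. Same-numbered arrays deviated from their group means with correlations of 0.41, -0.49 and -0.21. These cannot decide whether cultures were paired, because deviations from a mean of 3 arrays depend on each other and carry differences between arrays.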

Additional observations from a re-analysis of the deposited data

How the results depend on the processing

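Over 20 alternatives Dsg1a and Dsc1 kept their direction in all, and 193 of 200 member values kept theirs. When arrays were scaled by their medians the median of all genes shifted by -0.33, and Dsg2 was at -0.15, Dsg3 at -0.16, Dsc3 at -0.0084, Pkp1 at -0.10, Dsp at -0.13 and Jup at -0.16. Relative to that shifted median these 6 stood at 0.16, 0.16, 0.31, 0.22, 0.19 and 0.15, and Dsg1a and Dsc1 at 1.76 and 1.22. Such distances match the main setting by construction, because both scalings subtract a constant per array. With the mean of its probes Dsg2 was at -0.0014. The count of members that rose was 0 with median scaling, without a filter on dim probes, with the slide as a block, with the replicate block and within slides 1 and 2, and 0 to 2 with 1 array left out. With the replicate block Dsg1a was at 1.78 (limma adjusted p = 0.114) and Dsc1 at 1.23 (adjusted p = 0.198), in a fit that called 0 genes higher and 0 lower (1768 had an unadjusted p under 0.05). Not every array's deviations correlated best with those of its own number, which does not settle whether the numbers pair cultures.

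Genes higher and lower, 160 and 132 in the main setting, were 8 and 49 with median scaling, 7 and 29 without the filter, 338 and 240 where all 6 arrays had to be above background, 18 and 35 with the slide as a block, 411 and 375 with a trended robust prior, 0 and 0 within slides 1 and 2, and 1 to 97 and 7 to 137 with 1 array left out. With all 6 arrays above background 1 further desmosome gene, Dsg1c, rose. Pkp1 minus Dsp was -0.10 with normexp, -0.014 within slide 2 and -0.0063 to 0.11 with 1 array left out, and Pkp1 minus Jup was -0.020 within slide 1 and -0.11 to 0.18 with 1 array left out. Some alternatives had fewer arrays, fewer residual degrees of freedom or another number of genes tested. Median scaling, normexp and the trended robust prior kept the 6 arrays and 16495 genes. The causes of these differences were not tested. The 5 pairs that set Dsg1a or Dsc1 against another cadherin kept their sign in all 16 alternatives run for them. Not all of these could change it. Median scaling and the authors' values alter each array by a constant, which cancels in a difference within an array. The settings without the filter, with all 6 arrays above background and with outlier spots kept left these differences at their main values.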
